A study of Mus musculus with 21 samples.

Results

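BAT-only peaks are the estrogen receptor alpha (ERα) peaks of BAT, here taken as brown adipose tissue, that no ERα peak of another deposited list touches. They were chosen by the deposited peak positions, as the peaks of the BAT list on chromosomes 1 to 19 and X with no overlap of 1 bp or more with any peak of the vWAT estradiol, scWAT estradiol, Liver estradiol and vWAT vehicle lists. There were 2495 such peaks among 5193 BAT peaks, which is 48.0% (95% Wilson interval 46.7 to 49.4). Of these, 349 had a deposited −log10 q-value of 2 or more and 2146 a value under 2. The other 2698 BAT peaks overlapped at least 1 peak of another list and are called held BAT peaks. Because the lists themselves chose the BAT-only peaks, the counts and values are a description. The intervals cover counting error over peaks alone.

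The peaks come from chromatin immunoprecipitation and sequencing (ChIP-seq) with an antibody against ERα in 10-week-old CD-1 mice, an outbred stock. The BAT list stems from 1 library of mice given estradiol, so nothing in it could be tested across replicates. The lists it was set against stem from 4 libraries of vWAT, 3 of scWAT and 2 of Liver with estradiol and from 2 of vWAT with vehicle, each group with 1 list. The series has no BAT sample with vehicle among those given here, so peaks that depend on estradiol cannot be told apart from peaks that do not. No source used here gives the sex, dose, route or number of animals.

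ERα is a nuclear receptor that estradiol activates. It binds DNA directly at estrogen response elements (EREs), inverted repeats of the half-site AGGTCA, and also through other bound factors, and at many genes it acts from sites far from the promoter. Brown adipocytes burn fatty acids to make heat through the mitochondrial uncoupling protein Ucp1, under the control of noradrenaline from sympathetic nerves. Their identity rests on factors such as Prdm16, Ebf2, Pparg and the coactivator Ppargc1a, and estrogen is known to raise heat production by brown fat through ERα neurons of the hypothalamus.

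A small set of BAT-only peaks, 60 of 2495, touched a promoter window, and 6 of these windows are shown to place the peaks against gene starts. A window is not the sequence of its peak, since the peak can cover a part of it only. Each window runs from 250 bases before to 50 bases after a gene start of RefSeq on GRCm38.p6, the assembly behind mm10, and is printed 5′ to 3′ on the strand of its gene. The first 5 belong to the 5 strongest BAT-only peaks that touched a window, and the last belongs to Prdm16, the transcription factor that sets brown fat identity. Capitals mark the ERE half-site AGGTCA or its reverse complement TGACCT. The windows are chr10:80102653-80102952 on the minus strand for Sbno2, chr17:65772703-65773002 on the minus strand for Rab31, chr1:92906739-92907038 on the plus strand for Dusp28, chrX:85573772-85574071 on the plus strand for Tab3, chr2:109890628-109890927 on the plus strand for Lin7c and chr4:154636824-154637123 on the minus strand for Prdm16.
Sbno2: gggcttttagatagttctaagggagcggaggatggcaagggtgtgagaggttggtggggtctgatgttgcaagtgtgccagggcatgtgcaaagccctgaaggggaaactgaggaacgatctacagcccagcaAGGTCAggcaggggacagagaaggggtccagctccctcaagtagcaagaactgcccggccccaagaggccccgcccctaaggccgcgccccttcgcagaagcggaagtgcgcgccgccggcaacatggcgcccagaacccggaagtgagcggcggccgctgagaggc
Rab31: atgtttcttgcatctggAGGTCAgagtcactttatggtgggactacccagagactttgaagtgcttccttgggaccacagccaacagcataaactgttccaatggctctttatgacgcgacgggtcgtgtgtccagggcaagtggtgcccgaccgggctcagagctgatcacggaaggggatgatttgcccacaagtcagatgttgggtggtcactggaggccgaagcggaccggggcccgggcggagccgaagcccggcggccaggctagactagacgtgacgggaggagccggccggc
Dusp28: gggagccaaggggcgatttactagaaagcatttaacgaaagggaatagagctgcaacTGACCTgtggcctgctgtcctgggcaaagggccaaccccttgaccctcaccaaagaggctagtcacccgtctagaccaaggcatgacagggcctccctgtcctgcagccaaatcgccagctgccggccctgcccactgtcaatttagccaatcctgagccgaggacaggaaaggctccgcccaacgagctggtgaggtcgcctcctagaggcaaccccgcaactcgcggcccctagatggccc
Tab3: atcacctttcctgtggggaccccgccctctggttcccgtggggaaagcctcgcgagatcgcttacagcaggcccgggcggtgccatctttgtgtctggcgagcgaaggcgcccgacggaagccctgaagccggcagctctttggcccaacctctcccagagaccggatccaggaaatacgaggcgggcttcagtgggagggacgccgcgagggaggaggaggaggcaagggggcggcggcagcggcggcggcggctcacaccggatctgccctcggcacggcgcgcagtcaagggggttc
Lin7c: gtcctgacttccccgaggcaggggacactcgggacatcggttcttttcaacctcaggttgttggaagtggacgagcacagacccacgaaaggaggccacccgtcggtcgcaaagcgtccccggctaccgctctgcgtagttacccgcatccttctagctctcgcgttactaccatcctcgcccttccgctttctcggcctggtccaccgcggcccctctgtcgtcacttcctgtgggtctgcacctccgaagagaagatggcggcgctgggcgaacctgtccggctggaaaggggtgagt
Prdm16: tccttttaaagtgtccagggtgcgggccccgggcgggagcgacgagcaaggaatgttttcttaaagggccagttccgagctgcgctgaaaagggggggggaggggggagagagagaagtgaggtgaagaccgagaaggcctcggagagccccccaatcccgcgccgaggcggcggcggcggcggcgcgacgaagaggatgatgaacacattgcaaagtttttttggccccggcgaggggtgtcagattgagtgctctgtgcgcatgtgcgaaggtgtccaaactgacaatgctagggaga

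The Sbno2, Rab31 and Dusp28 windows each held 1 half-site, and the Tab3, Lin7c and Prdm16 windows held none. The half-sites of Sbno2 and Rab31 lie inside their peaks, whereas that of Dusp28 lies outside its peak, with 77 bases between them. The peak at Sbno2, a transcriptional co-regulator of inflammation, covered 294 bases of the window, with its summit 22 bases before the start and an enrichment of 5.27. Enrichment is the deposited ratio of the peak over a background that is not stated. The peak at Rab31, a small GTPase of vesicle traffic, had its summit 97 bases before the start and an enrichment of 5.20. At Prdm16 the summit lay 153 bases before the start and the peak covered 104 bases of the window, with an enrichment of 3.60 and a −log10 q-value of 0.955, so this peak belongs to the weaker class. Tab3, an adaptor of TAK1 kinase signalling, had the strongest peak of the set at 5.41, and that peak touched 144 bases at the upstream end of its window, with its summit 285 bases before the start and so outside the window.

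Few BAT-only peaks lay on promoters at all. They touched 67 of 32619 RefSeq promoter windows (0.205%), belonging to 62 genes and 60 peaks, whereas held BAT peaks touched 1788 windows (5.48%). Letter matches were counted on both strands in these windows. The inverted repeat GGTCANNNTGACC stood in 0 of 67 windows (interval up to 5.42%), against 23 of all 32619 windows (0.0705%). The half-site AGGTCA stood in 11 of 67 windows (16.4%, interval 9.42 to 27.1), close to its share of 16.2% in all windows, and in 10.4% of the windows held BAT peaks touched. The half-site lies within the ERR site TCAAGGTCA and the direct repeat AGGTCANAGGTCA, and both of these stood in 0 of the 67 windows. The GC box GGGCGG was commonest, in 71.6% of the BAT-only windows (interval 59.9 to 81.0), 57.5% of the held windows and 35.9% of all windows. The cyclic AMP response element TGACGTCA stood in 6 BAT-only windows (8.96%, interval 4.17 to 18.2), in 3.41% of held windows and in 1.80% of all windows. These 6 include overlapping windows of Tmem183a under the same peak, and the interval counts each window as separate. The ETS core CCGGAAG stood in 14.9% of BAT-only windows, 29.4% of held windows and 8.92% of all windows. Windows of 1 gene can overlap each other, and a match is a description of letters, not of binding.

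The BAT-only peaks lay in the weaker part of the BAT list. Among BAT peaks with a −log10 q-value of 2 or more, 349 of 1738 were BAT-only (20.1%, interval 18.3 to 22.0). Among those under 2, 2146 of 3455 were BAT-only (62.1%, interval 60.5 to 63.7). The share over the whole list is 48.0%, and 33.5% of all BAT peaks passed a −log10 q-value of 2. Ranked by p-value, the 200 strongest BAT peaks held 0 BAT-only peaks (Wilson bound 1.88%), and a count of 0, taken as allowing 3, allows a share of up to 1.5%. The 500 strongest held 7 (1.40%), the 1000 strongest 93 (9.30%) and the 2000 strongest 576 (28.8%). Below rank 1500 every further bin of 500 peaks was between 52.4% and 63.4% BAT-only, with 68.9% in the last 193.

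**Figure D1:**
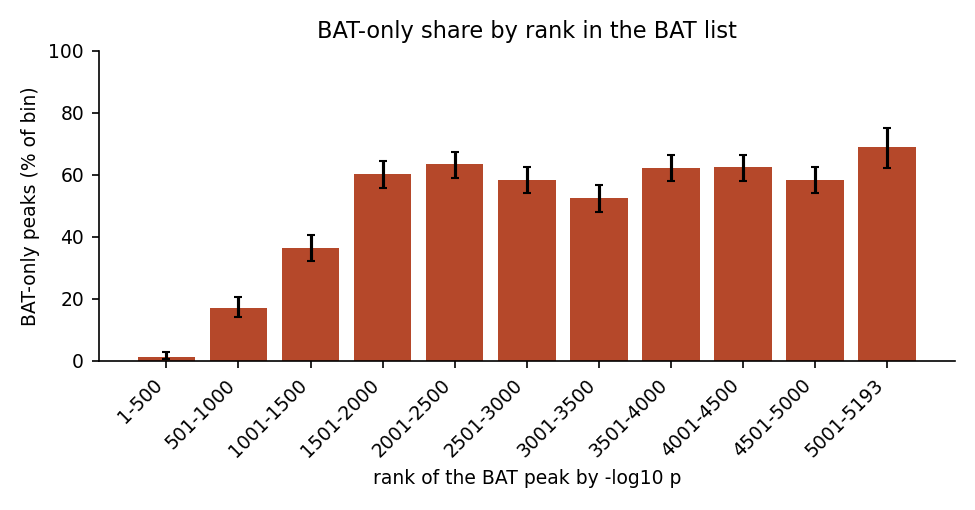
Share of BAT-only peaks (%, y axis) in bins of 500 BAT peaks ranked by −log10 p (x axis), with 95% Wilson intervals over peaks. The share is 1.40% in the strongest bin, 17.2% in the next and 68.9% in the last, which holds 193 peaks.

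Enrichment of BAT-only peaks had a median of 4.14 (quartiles 3.60 and 4.51, range 2.60 to 7.59), against 4.58 and a range of 1.87 to 26.2 for held BAT peaks. The 349 with a −log10 q-value of 2 or more had a median of 5.15 and the 2146 under 2 a median of 3.98. Thus 303 BAT peaks, all of them held, were stronger than the strongest BAT-only peak. Of 646 BAT peaks with an enrichment of 6 or more, 26 were BAT-only. BAT-only peaks were also narrow, with a median width of 299 bp against 352 bp for held peaks. The smallest width of 299 bp was shared by 72.4% of BAT-only peaks, by 6.02% of those with a −log10 q-value of 2 or more and by 31.4% of held peaks.

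The deposited enrichments of BAT-only peaks took few values. Only 102 distinct values occurred, against 457 among held peaks, and 16 values shared by at least 50 peaks each covered 1962 BAT-only peaks (78.6%), while 34.2% of held peaks stood at 1 of those values. The commonest value, 4.51, was shared by 348 BAT-only peaks, and 86.6% of the 402 BAT peaks at that value were BAT-only. These 348 peaks have a −log10 q-value of 1.98 and lie just under the threshold of 2, whereas the nearest peaks above it were 3 peaks at 2.01 with an enrichment of 4.58. A fixed ladder runs through the values: 3.0, 3.76, 4.51, 5.26, 6.01 and 6.76 are 4 to 9 times 0.751, and they held 26, 208, 348, 46, 9 and 2 BAT-only peaks. In all, 639 BAT-only peaks (25.6%) and 128 held peaks (4.74%) stood on this ladder. What produces the ladder was not tested, and read counts under the peaks were not at hand.

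**Figure D2:**
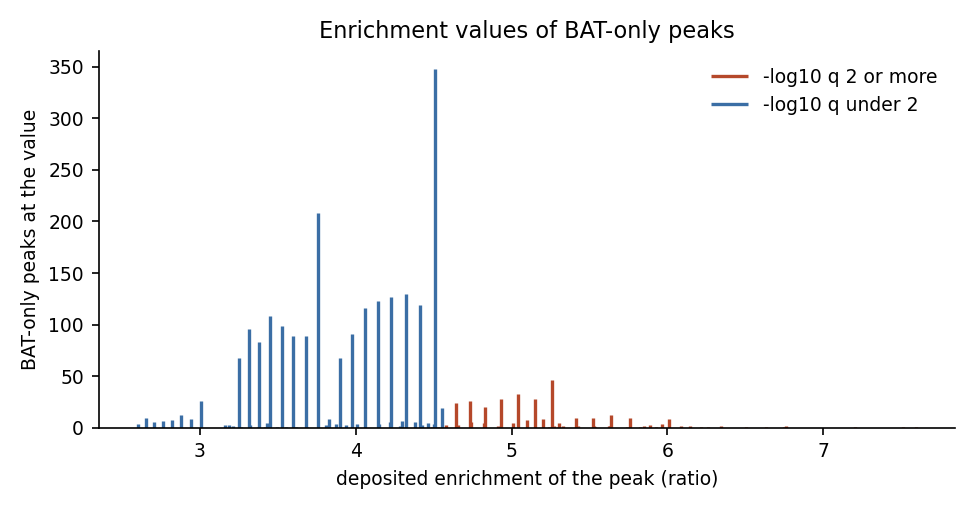
Number of BAT-only peaks (y axis) at each deposited enrichment value (ratio, x axis), coloured by −log10 q class. The tallest line, 348 peaks at 4.51, stands just under the −log10 q-value of 2.

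The lists that were compared hold unequal numbers of peaks, and the share of BAT peaks they held did not follow their size. The vWAT estradiol list, with 20715 peaks, held 44.6% of BAT peaks, scWAT with 17971 held 42.8%, Liver with 21411 held 36.2% and vWAT vehicle with 7400 held 34.3%. Each removed some peaks on its own: 159 BAT peaks were held by vWAT estradiol alone, 106 by scWAT alone, 134 by Liver alone and 24 by vWAT vehicle alone. BAT peaks held by all 4 lists numbered 1424, with a median enrichment of 5.30, and 68.9% of them had a −log10 q-value of 2 or more. The 423 held by exactly 1 list had a median of 4.06, close to the 4.14 of BAT-only peaks, and 19.6% of them passed 2, against 14.0% of BAT-only peaks. By strength, BAT-only peaks were close to the peaks held by 1 list, and weaker than those held by all 4.

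BAT-only peaks lay at varied distances from the peaks they did not touch. The median gap to the nearest peak of another list was 15.4 kb (quartiles 4.91 and 43.4). It was 19 kb for the 349 peaks with a −log10 q-value of 2 or more and 14.7 kb for those under 2. Within 500 bp of another list's peak lay 163 BAT-only peaks (6.53%), and within 10 kb lay 996 (39.9%). At the other end, 317 had no such peak within 100 kb, 44 of them with a −log10 q-value of 2 or more. The nearest peak was from Liver for 46.2%, from vWAT estradiol for 28.7%, from scWAT for 18.5% and from vWAT vehicle for 6.65%. Liver and vWAT estradiol, nearest most often, are also the longest lists, with 21411 and 20715 peaks. Their lengths are much closer than their shares, and the part of list length was not tested. No gaps from other positions of the genome are given here, so closeness is not shown to be a trait of BAT-only peaks.

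In position BAT-only peaks lay near gene starts far less often than held BAT peaks, though more often than the share of sequence there. Of 2495 summits, 184 lay within 1 kb of the start of a protein-coding gene (7.37%, interval 6.41 to 8.47), a zone that makes up 2.05% of the sequence spanned. The share was 6.30% (interval 4.20 to 9.36) at a −log10 q-value of 2 or more and 7.55% (6.51 to 8.74) under 2. Held BAT peaks had 62.6% (60.7 to 64.4) of summits there. By class of q-value, held peaks had 66.8% at 2 or more and 58.1% under 2. The share differed with the number of lists that held the peak, at 37.4% for 1 list, 29.9% for 2, 45.9% for 3 and 85.3% for 4. Peaks found in 1 other list alone resembled BAT-only peaks more: the share was 9.19% for vWAT estradiol, 9.28% for Liver, 17.2% for scWAT and 22.1% for vWAT vehicle. The median distance from summit to start was 39.4 kb for BAT-only peaks, 30.1 kb for vWAT estradiol alone, 32.4 kb for Liver alone, 17.3 kb for scWAT alone and 0.256 kb for held BAT peaks.

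**Figure D3:**
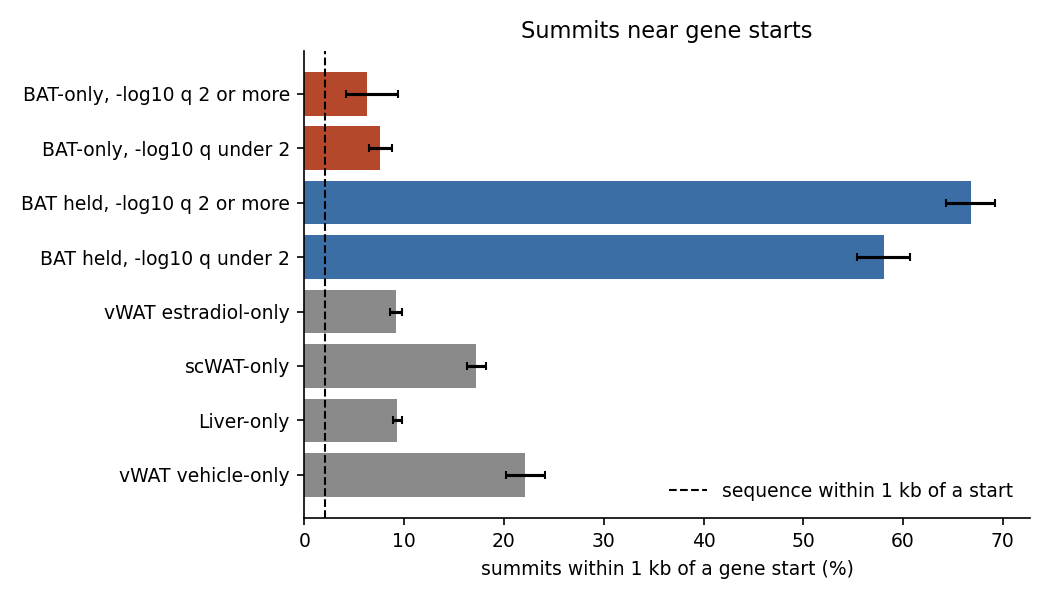
Share of summits within 1 kb of a protein-coding gene start (%, x axis) for BAT-only and held BAT peaks by −log10 q class and for peaks of 1 other list alone, with 95% Wilson intervals over peaks; the dashed line is the 2.05% of sequence in that zone. BAT-only peaks are at 6.30% and 7.55% in the classes of −log10 q-value 2 or more and under 2, and held BAT peaks at 66.8% and 58.1%.

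Some of the promoter peaks among the BAT-only peaks were near misses. Of the 184, 77 (41.8%) had a peak of another list within 1 kb that did not touch them. Without all BAT-only peaks that had such a neighbour, 107 of 2232 summits (4.79%, interval 3.98 to 5.76) lay near a start. In the other direction, the share was 16.1% when sharing was judged by summits within 100 bp, and 13.1% when each other list was held to the size of the BAT list. Inside the span of a protein-coding gene lay 48.3% of BAT-only summits, where spans make up 40.0% of the sequence, against 49.9% of held summits. Far from genes, over 100 kb from any span, lay 21.0% of BAT-only summits and 18.9% of those with a −log10 q-value of 2 or more, where 27.8% of the sequence lies, against 5.56% of held summits. That far class was 16.6% of the peaks of Liver alone, 12.9% of vWAT estradiol alone and 8.64% of scWAT alone.

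The density of BAT-only peaks differed little between autosomes. It was 1.0 peak per Mb over the autosomes, with a lowest value of 0.828 on chromosome 17 and a highest of 1.17 on chromosome 19. Held BAT peaks averaged 1.11 per Mb and ranged from 0.685 on chromosome 14 to 1.84 on chromosome 11, a gene-rich chromosome. On chromosome X the density was 0.597 of the autosomal one for BAT-only peaks (100 peaks) and 0.155 for held BAT peaks (29 peaks). The peaks of Liver alone had a ratio of 0.574, those of vWAT estradiol alone 0.254 and those of scWAT alone 0.180. BAT-only peaks also stood together less often than held BAT peaks. The median distance to the next BAT-only summit was 290.2 kb and 42 (1.68%) had one within 10 kb, against 123 kb and 186 (6.89%) among held BAT peaks. Distances between scattered positions of the same density are not given here, so wide spacing is not shown to be a trait of BAT-only peaks.

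**Figure D4:**
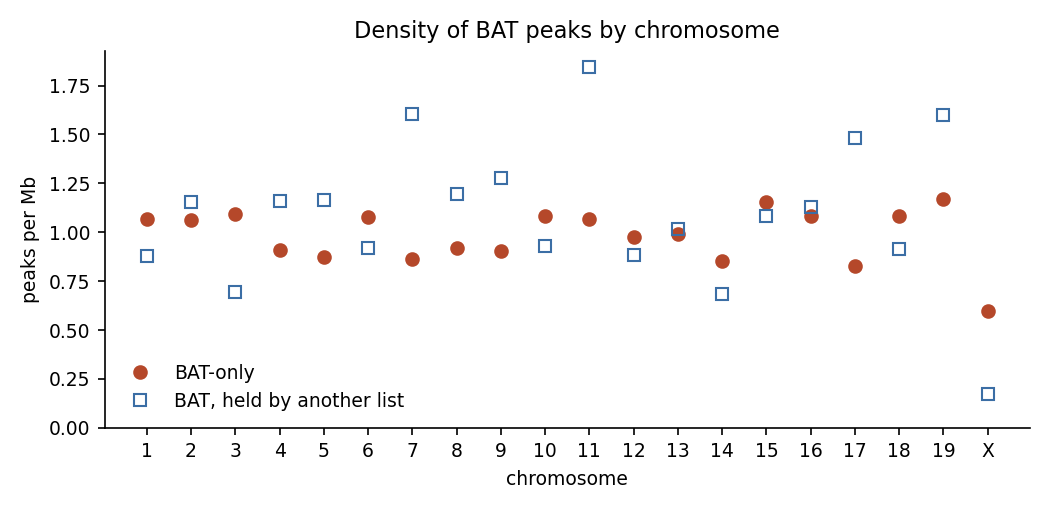
Density (peaks per Mb, y axis) of BAT-only and held BAT peaks on each chromosome (x axis). BAT-only peaks stay between 0.828 and 1.17 on the autosomes and are at 0.597 on X, whereas held BAT peaks reach 1.84 on chromosome 11 and are at 0.173 on X.

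The strongest BAT-only peaks lay near genes of varied roles. The first, at chr7:139292291-139292609, had an enrichment of 7.59 and a −log10 q-value of 7.12 and lay 25.3 kb from Pwwp2b, a PWWP-domain protein of chromatin. Next came chr14:55913062-55913366 at 7.51, lying 12.8 kb from Sdr39u1, and chr6:57247618-57247939 at 7.20, lying 10.5 kb from the vomeronasal receptor gene Vmn1r15 and 252.4 kb from any peak of another list. Peaks at 6.76 lay inside Edil3, a secreted integrin ligand, and 11.7 kb from Tmsb15a, a thymosin that binds actin, on chromosome X. A further peak at 6.76, at chr14:112514884-112515270, lay 832 kb from the nearest gene. The peak near Hspa4, a heat shock protein of the Hsp110 family, at 6.75 was 0.911 kb from a vWAT estradiol peak. The list of 10 closes with peaks inside Jade2 (6.63), 43.9 kb from the olfactory receptor gene Olfr720 (6.5) and at chr14:92745630-92745938 (6.34), 268 kb from a gene.

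Among the peaks near a start, the strongest belonged to Lrig1, a membrane protein that restrains growth factor receptors. Its peak at chr6:94700771-94701074 had an enrichment of 6.34, lay 668 bp from the start and was 29.1 kb from a peak of another list. Pias2, a SUMO ligase that also modulates nuclear receptors, had 5.82 at 400 bp from an end of its span. Pias2 lies on chromosome 18, where starts were not at hand, so this end may not be the start. Dlg5, a scaffold of cell polarity, had 5.64 at 846 bp. A peak in Hagh, a glyoxalase gene, 667 bp from the start of Meiob, also had 5.64. The Hagh peak lay only 0.524 kb from a Liver peak, and those of Pias2 and Dlg5 were 16.9 and 35.4 kb from a peak of another list. Under a −log10 q-value of 2 the 5 strongest peaks all shared an enrichment of 4.55. These lay inside Gnptab, inside Tmc6 at 100 bp from its start, 0.451 kb from Rnasek, and at chr1:183914847-183915160 and chr10:122289503-122289806 with no gene within 50 kb.

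Genes are counted here as having a peak when a summit lies in the gene span or within 25 kb of it. Of 21627 protein-coding genes, 2210 had a BAT-only peak (10.2%), 311 had one with a −log10 q-value of 2 or more (1.44%) and 4723 had a held BAT peak (21.8%). Most had a single peak: 1987 genes had 1 BAT-only peak, 191 had 2, 27 had 3 and 5 had 4. The median span went up with the count, at 36.0, 136, 319 and 530 kb, so genes with more such peaks were longer.

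Among the genes of brown fat identity and heat production, 6 of 24 had a BAT-only peak (25%, interval 12 to 44.9) and 12 had a held BAT peak, against 10.2% and 21.8% of all genes. In density that is 6 peaks at 1.67 per Mb, beside 1.13 per Mb over the windows of all genes. Other gene lists were denser: estrogen response had 2.36 per Mb, cyclic AMP signalling 2.32, endothelium 2.28 and hormone receptors 2.15. Lineage factors had 2.15 and general adipocyte genes 1.71, and the remaining lists were below the brown fat genes. Among the brown fat genes, Ppargc1a alone had a BAT-only peak with a −log10 q-value of 2 or more. This coactivator drives mitochondrial biogenesis and Ucp1 expression, and its BAT-only peak at chr5:51607454-51607754, inside the gene and 39.9 kb from a start, had an enrichment of 5.26 and a −log10 q-value of 3.09. The nearest peak of any other list was 67.6 kb away, in Liver. The gene with its 25 kb on either side is long, at 711.6 kb, and other lists had peaks in it. Liver had 4 (up to 5.63), vWAT estradiol 2 (up to 4.08), and scWAT and vWAT vehicle 0. A held BAT peak of 5.24 lay there too.

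The weaker peaks of this group include the embryonic patterning factors of interscapular brown fat. Zic1, a zinc finger factor that marks classical brown fat, had a peak of 4.32 lying 14.5 kb outside the gene and inside its neighbour Zic4. Lhx8, a LIM homeobox factor with the same use as a marker, had a peak of 3.60 inside the gene and 116.7 kb from a peak of another list. Within 25 kb of both genes the vWAT estradiol, scWAT, Liver and vWAT vehicle lists had 0 peaks. Ppargc1a, Prdm16, Ppara and Esrrg, the other brown fat genes with a BAT-only peak, each had peaks in other lists. These genes are longer, at 711.6, 371.2, 121.9 and 656.4 kb with 25 kb on either side. Zic1 and Lhx8 measure 57.7 and 74.3 kb in the same way, and the part of length was not tested. How many of all genes with a BAT-only peak lack peaks of the other lists is not given here. The −log10 q-values of the Zic1 and Lhx8 peaks, 1.71 and 0.955, are under 2, so both belong to the weaker class. Ppara, a fatty acid sensor that induces oxidation genes, had 4.06 at 10.1 kb from the gene, inside Pkdrej. Esrrg, an orphan receptor of oxidative metabolism, had 2.65, near the lowest BAT-only value of 2.60. Prdm16 had, beside the peak of 3.60 at its start, a held BAT peak of 6.63, and its strongest peaks in other lists were 13.4 in vWAT estradiol and 10.8 in scWAT.

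Ucp1 had no BAT peak of either kind in its span or within 25 kb, whereas the vWAT estradiol list had 2 there, up to 6.48, and the scWAT list 1 at 9.39. Likewise the BAT list had 0 peaks at Cidea, a lipid droplet protein of brown fat, and at Dio2, the deiodinase that makes active thyroid hormone, and 0 at Ebf2. The strongest BAT peaks in this group were held ones, at 18 near Esrra, a receptor that regulates mitochondrial genes, and 11.1 near Cox7a1, a respiratory chain subunit of heart, muscle and brown fat. ChIP-seq does not measure expression, so the tissue label was not checked through marker levels.

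Signalling downstream of noradrenaline gave 4 of 17 genes with a BAT-only peak, all of them under a −log10 q-value of 2, and 6 genes with a held one. Pde4d, a phosphodiesterase that breaks down cyclic AMP, had 3 inside its very long span, with 4.38, 4.14 and 3.76. Adra1a, an alpha-1 adrenergic receptor, had 4.06 and 3.87, and the first of these was 0.111 kb from a vWAT estradiol peak. Adcy3, an adenylyl cyclase, had 3.98 and Prkar2b, which regulates protein kinase A, had 3.52 at 0.064 kb from a vWAT estradiol peak. The Pde4d peak of 3.76 was 0.104 kb from a scWAT peak. So 3 of the 7 peaks lay within 0.111 kb of a peak in a white fat list, and the other 4 lay 11.1 to 17.1 kb from the nearest peak of another list. Fatty acid oxidation had 2 of 18 genes, with 7 held: Acadl, a long-chain dehydrogenase, with a peak of 5.10 and a −log10 q-value of 2.75 that lies 14 kb outside the gene, and Etfdh, which passes electrons to ubiquinone, at 3.98. The Acadl peak lies inside the neighbouring gene Kansl1l, 0.763 kb from the start of Kansl1l, and 0.164 kb from a Liver peak. Mitochondrial respiration had 1 of 17, Nrf1 at 4.06, with 4 held.

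Genes that respond to estrogen gave 5 of 20 with a BAT-only peak, 2 with a −log10 q-value of 2 or more, and 6 with a held one. Ccnd1, the cell cycle regulator cyclin D1, had 5.15 at 18.9 kb from the gene with a −log10 q-value of 2.90. Nrip1, a corepressor of nuclear receptors that restrains brown fat genes, had 4.73 at 1.98 kb from the gene with a −log10 q-value of 2.20. Foxo1 had 4.51, Ctsd, the protease cathepsin D, had 4.14, and Esr1, which encodes ERα itself, had 3.25 at 4.08 kb from the gene. Esr1 had this 1 BAT peak, beside 15 in vWAT estradiol, 10 in scWAT, 6 in Liver and 2 in vWAT vehicle. The classical targets Greb1 and Pgr had 0 BAT peaks of either kind, against 4 each in vWAT estradiol.

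Factors of the brown and muscle lineages gave 4 of 16 with a BAT-only peak and 3 with a held one. Ebf1, an adipocyte and B cell factor, had 4.73 inside the gene and 4.32 at 0.907 kb from its start. Irf4, which partners Ppargc1a in brown fat on fasting and cold, had 4.73 at 17.4 kb from the gene and 5.13 kb from its neighbour Exoc2, with a −log10 q-value of 2.20 like the stronger Ebf1 peak. The Irf4 peak was 1.65 kb from a scWAT peak. At Irf4 the vWAT estradiol list had 3 peaks (up to 8.18) and the scWAT list 3 (up to 5.28). The mesoderm factors Meox2 and Meox1 had 3.60 and 3.0. Of the general adipocyte genes 3 of 20 had one, at 3.90 for the adipokine gene Adipoq, 3.83 for the triglyceride enzyme Dgat2 and 3.81 for the master factor Pparg, against 4 held. Hormone receptors and circadian factors had 5 of 18, namely Rora (4.51 and 3.52), Nr3c1 (3.52), Per1 (3.43), Cry1 (3.31) and Per3 (3.25), all under a −log10 q-value of 2, with 8 held. The Per1 peak was nearer to Hes7, at 0.872 kb, and lay 0.192 kb from a Liver peak. White depot identity had 1 of 13, Wt1, a mesothelial and visceral fat factor, at 5.26 with a −log10 q-value of 3.09 inside the gene, and 0 held. Other lists had peaks at Wt1 too, with 4 in vWAT estradiol (up to 4.97) and 1 in vWAT vehicle (4.30). The nearest of them was a vWAT estradiol peak 7.11 kb from the BAT-only peak.

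Markers of other cells that BAT tissue can hold or border, and of hepatocytes from the compared Liver, were counted in the same way. Endothelium gave 4 of 15 genes with a BAT-only peak (26.7%, interval 10.9 to 52.0) and 2 held. Emcn, an endothelial sialoglycoprotein, had 4.64 with a −log10 q-value of 2.05, and Pecam1, Robo4 and Flt1 had 4.32, 3.68 and 3.45, the Robo4 peak being nearer to Hepacam. Neurons and Schwann cells gave 2 of 18, Mbp and Syt1, both at 4.51, and 2 held. Skeletal muscle, which borders the depot, gave 0 of 18 and 3 held, macrophage and immune genes 0 of 16 and 2 held, and hepatocyte genes 0 of 18 and 2 held. A count of 0, taken as allowing 3, allows up to 16.7% of 18 genes and 18.8% of 16 (Wilson bounds 17.6% and 19.4%). No list was tested. With 13 to 24 genes in a list the intervals are wide, and for the 5 lists at 25% or more their lower bounds ran from 10.2% to 12.5%, beside the 10.2% of all genes. Several of these lists hold long genes: the median span with its 25 kb on either side was 133 kb for lineage factors, 95.5 kb for hormone receptors, 92.9 kb for endothelium and 75.5 kb for brown fat genes, against 67.3 kb for all genes. The part of length in these counts was not tested.

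**Figure D5:**
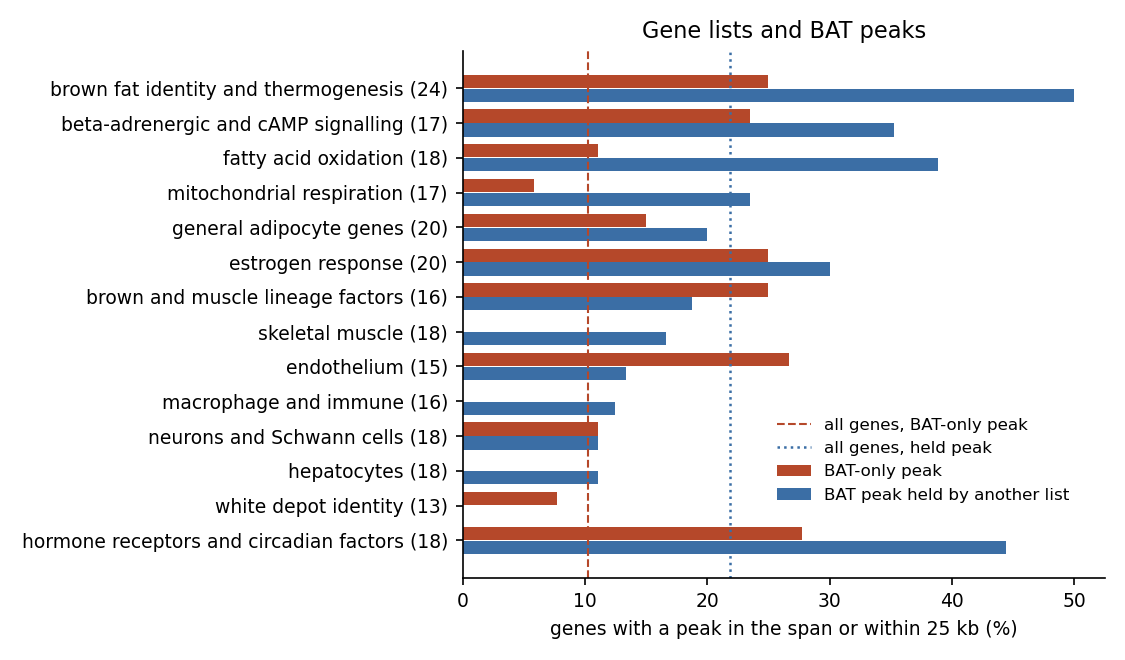
Share of genes (%, x axis) of each list (y axis, number of genes in brackets) with a BAT-only peak and with a held BAT peak in the span or within 25 kb; the dashed line at 10.2% and the dotted line at 21.8% are the same over all protein-coding genes. Brown fat genes are at 25% (6 of 24) for BAT-only peaks, with 12 of 24 for held BAT peaks.

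The genes with most BAT-only peaks, 4 each, were Cntnap2, Foxn3, Lhfpl3, Nfia and Slc43a2. None of them had a held BAT peak, and 21.8% of all protein-coding genes had such a peak. With 25 kb on either side these 5 genes measure 97.7 to 2291 kb, against a median of 67.3 kb for all genes. The share among genes of like length is not given here. Nfia is a factor known to act with Pparg in brown adipocytes. Its peaks, all inside the gene, had enrichments of 5.30, 4.66, 3.87 and 3.31, the first 2 with a −log10 q-value above 2. The peak of 3.87 was 0.293 kb from a vWAT estradiol peak, and other lists were rich in peaks here, with 14 in vWAT estradiol, 10 in Liver, 8 in scWAT and 3 in vWAT vehicle. That the BAT peaks lay at other positions is fixed by how BAT-only peaks were chosen. Slc43a2, an amino acid transporter, has a span of 47.7 kb, the shortest of the 5, and its peaks, at most 3.98, were all under a −log10 q-value of 2 and lay 0.200 to 5.57 kb from a peak of another list. Foxn3, a forkhead repressor, reached 5.63. Cntnap2, a neuronal adhesion protein with a span of 2241 kb, reached 5.26, and Lhfpl3 also reached 5.26.

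Counts over chemosensory and microRNA genes were added after the values were seen, because 2 of the 10 strongest peaks lay near chemosensory receptor genes. Of the 1822 BAT-only peaks with a gene within 50 kb, 21 (1.15%) had an olfactory or vomeronasal receptor gene as the nearest, and 5 of 258 (1.94%) at a −log10 q-value of 2 or more, against 4 of 2448 held BAT peaks (0.163%). Such genes make up 6.76% of protein-coding genes, a share of genes and not of peaks, and no test was made. Of microRNA hairpins, 9 lay within 5 kb of a BAT-only summit. The number of all hairpins and the count near held BAT peaks are not given here. So 9 is not shown to be many or few. The strongest peak among them, 5.04 near Mir7237, had a −log10 q-value of 2.70, and all the others were under 2. Among these, Mir125b-1 and Mir6538 had 4.23 each, and Mir484, Mir5110 and Mir22 had 3.94, 3.90 and 3.31.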

How the data were processed

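ERα ChIP-seq of BAT (1 library) was set against vWAT estradiol (4), scWAT (3), Liver (2) and vWAT vehicle (2). Groups were taken from the sample labels, and H3K27ac and RNA samples of vWAT were not used here. Per the labels' protocols, frozen tissue gave nuclei that were sonicated and precipitated with antibody sc543. Per the submitters' processing notes the build was mm10 and the tools included BWA 0.7.12 and HOMER, with no role stated. How peaks were called (program, threshold, input) and whether libraries were pooled first is not given in the sources used here. Deposited lists give an enrichment ratio, a −log10 p-value, a −log10 q-value, a summit and a score per peak, the score of every BAT peak being its −log10 p-value times 10 without the decimals. Read counts and depth per library are unknown. No sample column was left unused.

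From these lists, peaks on chromosomes 1 to 19 and X were kept, which left out 4 BAT peaks on chromosomes M and Y. Coordinates count from 1. Overlap meant 1 bp or more, and shares carry 95% Wilson intervals, for counting error over peaks alone. Gene spans, starts and promoter windows came from RefSeq on GRCm38.p6. A start was taken from the promoter table for 17273 of 21627 protein-coding genes, and both ends of the span were used for the other 4354, including all 510 on chromosome 18. Exons, introns and sequence under distal peaks were not analysed here. All 248 genes of the 14 lists were found, with Wisp2 and Tf under the names Ccn5 and Trf.

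Peaks were assigned to the closest protein-coding gene, up to 50 kb away. Named were the 10 strongest BAT-only peaks with a −log10 q-value of 2 or more, the 5 strongest under 2, the 5 strongest within 1 kb of a start, the 5 genes with most BAT-only peaks, up to 4 genes of each list, and every brown fat gene with such a peak, with Ucp1. One result that this rule gives is not reported here. Cidea, Dio2, Ebf2, Esrra, Cox7a1, Greb1, Pgr, Meox1 and Meox2, the fifth gene of a list, the genes of the printed promoter windows, and the chemosensory and microRNA counts were named after their values had been seen. The members and lists were chosen with earlier results of these data known. The work was done in Python 3.11.15 (matplotlib 3.10.9, scipy 1.17.1, pandas 2.3.3, numpy 2.4.6). The overlap step was tested on 3000 simulated intervals and passed 5 of 5 checks.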

Additional observations from a re-analysis of the deposited data

How the results depend on the processing

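Of 66 recomputed values 24 moved, meaning that a share or median left its interval or a count changed by over 1.5 times, and 42 did not. The count of BAT-only peaks, 2495, was 2332 to 3099 except among BAT peaks at a −log10 q-value of 2 or more. The share of BAT peaks that are BAT-only was 48.0%. It became 59.7% when sharing meant summits no more than 100 bp apart, 51.3% when 50% of the BAT peak had to be covered, 44.9% with the other lists widened by 500 bp, 49.6% with other peaks at a −log10 q-value of 2 or more and 58.7% with the other lists cut to the size of the BAT list. Without the Liver, scWAT or vWAT estradiol list it was 50.6%, 50.1% and 51.1%. With BAT peaks at a −log10 q-value of 2 or more it was 20.1% (349 peaks), with a median enrichment of 5.15, 6.30% of summits near a gene start and 1 brown fat gene. In the order of the first 3 settings the share near a gene start, 7.37% as reported, was 16.1%, 9.92% and 5.79%. It was 13.1% at equal list size, 9.81% without Liver, 8.77% without scWAT and 16.1% within 5 kb. BAT-only peaks that passed a −log10 q-value of 2, 14.0% as reported, made up 15.8% under the 100 bp summit rule. A window of 100 kb gave 11 brown fat genes in place of 6 (45.8%, against 23.6% of all genes), a window of 5 kb gave 4 (16.7%, against 6.24%) and the nearest gene within 50 kb alone gave 4. Chosen after seeing the data, a −log10 q threshold of 1.9, which takes in the 348 tied peaks, gave 28.9%, and leaving out peaks with a neighbour within 1 kb gave 4.79% near a start. Beyond the construction of each setting, the cause was not tested. The same share among BAT peaks already held to that value was not run, since it is complete by construction.

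No paired analysis was possible because each group has 1 peak list and the lists carry no values per library. For the same reason leaving out a replicate was not possible. The lists differ in number of libraries and peaks, so a BAT-only peak is a peak that other lists do not hold, not a site shown to lack ERα elsewhere. Depth of the BAT library is unknown, and most BAT-only peaks lie under a −log10 q-value of 2.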
